A study of Mus musculus with 24 samples.

Results

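Iron storage and transport genes were taken from the count table as the 9 rows whose symbol is Ftl1, Fth1, Trf, Tfrc, Slc40a1, Slc11a2, Hamp, Hmox1 or Cp, out of 33000 genes. Each symbol matched 1 row. The libraries were made by 3'Pool-seq, which sequences the 3' ends of polyadenylated transcripts, from frontal cortex RNA of 3 WT C57BL/6 mice and 3 homozygous GFAP-IL6 mice, all aged 3 months. The GFAP-IL6 line carries an Il6 transgene that the Gfap promoter drives in astrocytes, and no other allele or treatment is given for either group. Libraries of 1 genotype with the same number in their titles were taken as 1 mouse, so each mouse gave 4 libraries. They were tagmented (cut by a transposase) from 2 ng or 1 ng of cDNA in each of 2 sets, A and B. Per the methods, samples were pooled after reverse transcription and then amplified and tagmented as pools, so libraries of 1 amount and set may share a reaction. The study describes separate library preparations from the same samples, and the labels do not say whether these are the A and B sets.

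Cells hold iron in ferritin, a hollow shell built from heavy (Fth1) and light (Ftl1) chains. Iron arrives bound to transferrin (Trf), is taken up through the transferrin receptor (Tfrc), crosses the endosomal membrane through the transporter DMT1 (Slc11a2), and leaves the cell through ferroportin (Slc40a1) with the help of the ferroxidase ceruloplasmin (Cp). Heme oxygenase 1 (Hmox1) releases iron from heme, and hepcidin (Hamp) is a peptide hormone that closes ferroportin. In the brain oligodendrocytes are the main source of transferrin mRNA, astrocytes carry much of the ceruloplasmin, and interleukin-6 is the classical inducer of hepcidin in the liver.

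Several of these mRNAs are controlled after transcription through an iron-responsive element, a short hairpin that binds iron regulatory proteins. The elements that a pattern search found are shown because they are the feature that links the storage, uptake and export genes. Where such an element acts on translation, a count of mRNA does not show it. The search asked for a C, 5 bases, the loop CAGTGN (N being A, C or T) and 5 bases that pair with the first 5 by A-U, G-C or G-U. Of 21901 protein-coding genes in GENCODE vM21, 222 (1.01%) had a match in any protein-coding transcript. Among the 9 genes 4 had a match, with 7 matches in all. Each sequence below is 30 bases of the transcript read 5' to 3', with the 6 loop bases in capitals, and positions are on mm10.
Ftl1 element, chr7:45459778-45459807, minus strand: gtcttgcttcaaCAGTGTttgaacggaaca
Fth1 element, chr19:9982732-9982761, plus strand: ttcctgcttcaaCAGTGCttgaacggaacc
Tfrc 3' UTR element, chr16:32631219-32631248, plus strand: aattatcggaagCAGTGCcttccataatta
Tfrc 3' UTR element, chr16:32631598-32631627, plus strand: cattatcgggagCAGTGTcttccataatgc
Tfrc 3' UTR element, chr16:32631663-32631692, plus strand: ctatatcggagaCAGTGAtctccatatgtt
Tfrc 3' UTR element, chr16:32631710-32631739, plus strand: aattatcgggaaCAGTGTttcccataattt
Slc40a1 element, chr1:45925464-45925493, minus strand: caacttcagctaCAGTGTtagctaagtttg
The Ftl1, Fth1 and Slc40a1 matches lie in the 5' UTR, in exon 1 of 4, 4 and 8 exons. The 4 Tfrc matches lie in the 3' UTR, in exon 19 of 19. This strict pattern had no match in Slc11a2, Trf, Hamp, Hmox1 or Cp, which says only that it is not in their annotated protein-coding transcripts. It allows no bulge or mismatch within the 5 pairs, so an element with such a change would be missed.

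Promoter sequence was at hand for 5 of the 9 genes, as 8 windows that run from 250 bases before to 50 bases after a RefSeq start (GRCm38.p6). The windows were searched on both strands for the STAT motif TTCNNNGAA and the antioxidant response element TGACNNNGC. Of 32841 windows of all genes, 8.3% held the first and 12.4% the second. Among the 8 windows the STAT motif occurred in 1, that of Hamp, with its first base at position -97 from the start, and the antioxidant element in 0. Neither motif occurred in the 2 Cp windows. The upstream 250 bases of Hamp and of the first Cp window are shown because interleukin-6 acts through STAT3 and Cp is the one gene of the 9 called between genotypes. Capitals mark the STAT motif.
Hamp, chr7:30944030-30944279, minus strand: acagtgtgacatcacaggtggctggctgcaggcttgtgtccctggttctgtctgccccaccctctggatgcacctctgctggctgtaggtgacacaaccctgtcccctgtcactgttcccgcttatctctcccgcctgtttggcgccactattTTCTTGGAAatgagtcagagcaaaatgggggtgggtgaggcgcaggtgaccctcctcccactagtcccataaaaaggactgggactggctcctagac
Cp, chr3:19956804-19957053, plus strand: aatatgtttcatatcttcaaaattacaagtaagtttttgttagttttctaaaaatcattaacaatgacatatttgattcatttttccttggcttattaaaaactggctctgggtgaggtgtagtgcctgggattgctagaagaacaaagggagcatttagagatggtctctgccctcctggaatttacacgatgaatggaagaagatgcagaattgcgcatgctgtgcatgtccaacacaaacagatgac

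Library totals ran from 1524165 to 12256374 counts, and totals per mouse from 7852743 to 37582644. Il6 was 0.142 ± 0.132 CPM in WT and 2.99 ± 1.33 CPM in GFAP-IL6 mice (SD, n = 3 each), a 16.7-fold difference, and Gfap was 16.0 to 23.5 CPM against 80.9 to 146 CPM. CPM is counts-per-million, with library totals corrected by TMM factors. WT mouse 3 stood apart, with the lowest total and with Ttr, a choroid plexus transcript, at 4038 CPM against 74.6 to 743 CPM in the other 5 mice. In the genotype test described below, 1.74% of all genes were called higher in GFAP-IL6 mice and 0.0547% lower. Of the marker lists, 9 of 10 microglial, 3 of 6 endothelial and 1 of 7 astrocytic genes (Gfap) were called higher. For the other lists, 0 of 8 oligodendrocytic, 0 of 6 neuronal, 0 of 6 border macrophage and 0 of 5 red blood cell genes were called. In tissue RNA a change in the number of cells of a type and a change in the RNA per cell cannot be told apart.

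Genotypes were compared on the 4 libraries of each mouse summed, with edgeR's quasi-likelihood test and a call at a Benjamini-Hochberg adjusted p under 0.05. Of 14621 genes tested 1.80% were called, 1.74% higher and 0.0547% lower in GFAP-IL6, and 1.23% also passed an absolute log2 change of 1. Of the 9 iron genes 8 passed the filter on low counts and 1, Cp, was called. Their log2 changes had a median of 0.25 and a range of -0.04 to 0.87, beside a median of -0.00691 over all genes tested. The 3 GFAP-IL6 mice lay above the 3 WT mice without overlap for Ftl1, Slc40a1, Hmox1 and Cp, 4 of the 8, which was so for 8.43% of all genes tested. None of the 8 lay below without overlap, which was so for 5.93%. An exact permutation test of 3 mice against 3 cannot give a p under 0.1.

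**Figure D1:**
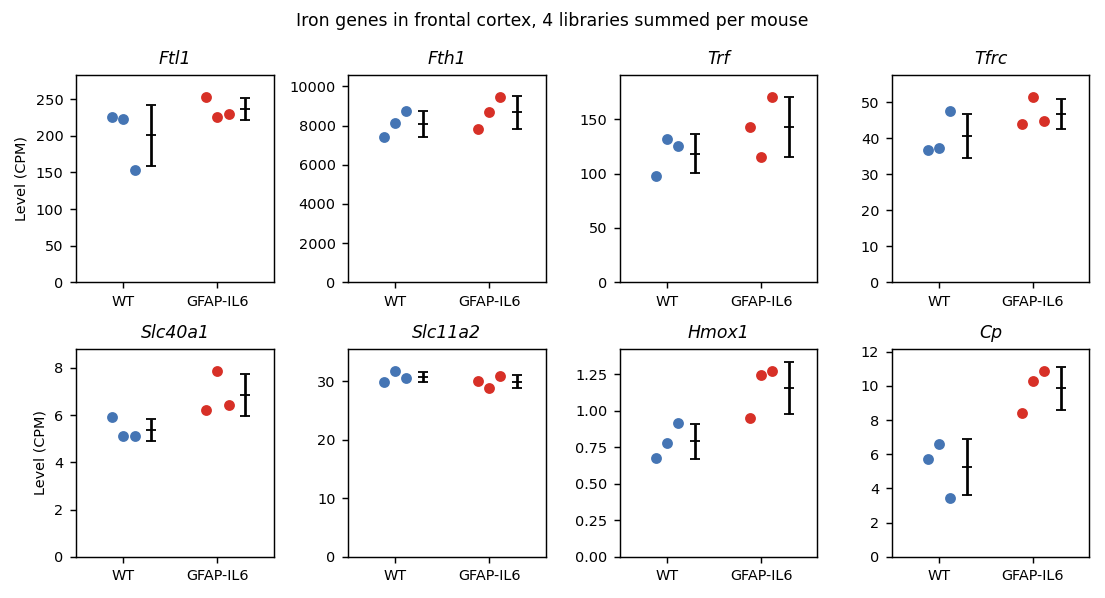
Level in CPM (vertical axes, from 0, a scale for each gene) in each of 3 WT (blue) and 3 GFAP-IL6 (red) mice, with the mean and SD beside the points. Cp shows a gap, from 6.59 CPM in the highest WT mouse to 8.44 CPM in the lowest GFAP-IL6 mouse, while the groups overlap for Fth1, Trf, Tfrc and Slc11a2.

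Ceruloplasmin was the only member called between genotypes. Cp (ENSMUSG00000003617.14, chr3:19957054-20009145, plus strand) was at 5.72, 6.59 and 3.41 CPM in the WT mice and at 8.44, 10.3 and 10.9 CPM in the GFAP-IL6 mice. All 3 GFAP-IL6 mice were above all 3 WT mice, and the lowest value was that of WT mouse 3, with 26 counts. The means were 5.24 ± 1.64 and 9.86 ± 1.27 CPM (SD, n = 3 each), a log2 change of 0.87 (SE 0.203, 95% interval 0.43 to 1.30, adjusted p = 0.0408), or 1.83-fold. Among the called genes that were higher, 192 had a larger log2 change. The call was close to the threshold. It was lost without WT mouse 1 (0.0931), WT mouse 3 (0.0651), GFAP-IL6 mouse 2 (0.164) or GFAP-IL6 mouse 3 (0.266), values that are adjusted p, while the log2 change stayed between 0.71 and 1.05 in every alternative run.

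In the 4 sets, which hold the same 6 mice and are repeats of 1 comparison, Cp was higher in GFAP-IL6 each time. Its log2 change was 0.44 in 2 ng set A (adjusted p = 0.872), 1.18 in 2 ng set B (adjusted p = 0.0637), 0.58 in 1 ng set A (adjusted p = 0.733) and 1.20 in 1 ng set B (adjusted p = 0.0316). The share of all genes called in these sets was 1.03%, 1.08%, 1.10% and 1.08%, and 0.755% in 1 ng set B with an absolute log2 change above 1. In 2 ng set A the counts were 29, 35 and 3 in WT and 14, 42 and 90 in GFAP-IL6, and the groups overlapped. In 1 ng set B they were 36, 27 and 10 in WT and 27, 77 and 150 in GFAP-IL6, and in CPM the groups did not overlap, with WT at 3.88 to 5.68 and GFAP-IL6 at 8.77 to 12.01. The single-set counts are low, with 3 to 150 reads a library.

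**Figure D2:**
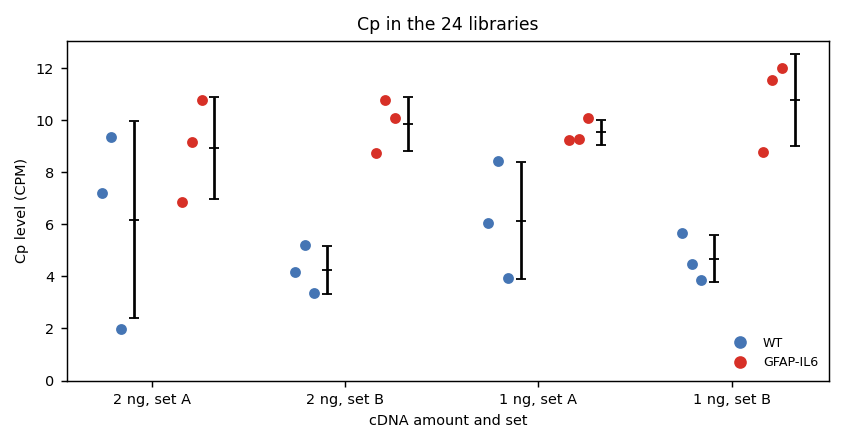
Cp level in CPM (vertical axis, from 0) in the 24 libraries, by cDNA amount and set (horizontal axis), with WT in blue, GFAP-IL6 in red, and the mean and SD beside each group of 3. WT spreads from 1.99 to 9.36 CPM in 2 ng set A, and lies below all GFAP-IL6 libraries in both B sets and in 1 ng set A.

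Summed levels of several marker lists differed between the same mice as Cp. The summed level of the 10 microglial markers was 572 to 628 CPM in WT and 1160 to 1500 CPM in GFAP-IL6, that of the 6 endothelial markers 157 to 166 against 196 to 311 CPM, and that of the 7 astrocytic markers 2890 to 2980 against 3260 to 3460 CPM, none with a marker at 0 in all libraries. The astrocytic markers did not move as 1 group. Gfap and Aldoc were higher without overlap, Aldh1l1 was lower without overlap (51.8 to 56.2 against 47.7 to 51.6 CPM), the other 4 overlapped, and only Gfap was called. The 6 choroid plexus markers summed to 109 to 4080 CPM in WT and 81.3 to 756 CPM in GFAP-IL6. The part of these cells in the Cp difference was not tested. Exons of Cp overlap 108 nt of Hps3 on the other strand. Whether reads were counted by strand is not stated. Hps3 had a log2 change of -0.23 (adjusted p = 0.886).

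The ferritin chains did not pass the test between genotypes. Fth1 (chr19:9980598-9985098, plus strand), the heavy chain that carries the ferroxidase centre, was at 7392, 8130 and 8719 CPM in WT and 7819, 8711 and 9463 CPM in GFAP-IL6. The groups interleave, and the log2 change was 0.10 (SE 0.0949, 95% interval -0.10 to 0.30, adjusted p = 0.859). Ftl1 (chr7:45457944-45459884, minus strand), the light chain that aids mineral formation, was at 226, 224 and 153 CPM in WT and 253, 226 and 230 CPM in GFAP-IL6. The groups were separated by less than 1 CPM and the low WT value was that of mouse 3. Its log2 change was 0.23 (SE 0.123, 95% interval -0.03 to 0.49, adjusted p = 0.655).

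Ftl1 counts depend on how reads with several matches were treated. Only uniquely aligned reads were counted, and the last 300 nt of Ftl1 aligned at 97.3 to 99.0% identity to 5 other loci annotated as Ftl1-ps1, Ftl1-ps2, Ftl2-ps, Gm12164 and Gm15590. Of these only Ftl1-ps1 has a row in the table, with 29 counts in all against 25495 for Ftl1. The miRNA gene Gm22133 lies within Ftl1 on the same strand over 109 nt and had 0 counts, and Mir692-2 and Mir692-3 matched the same length at 97.2% with 1 and 0 counts. The part of these copies in the Ftl1 levels was not tested. The last 300 nt of Fth1 had no such copy. Levels of Ftl1 and Fth1 were therefore not compared with each other.

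Of the uptake genes none was called between genotypes. Transferrin, Trf (chr9:103204001-103230444, minus strand), was at 98.0, 131.7 and 125 CPM in WT and 143, 115 and 170 CPM in GFAP-IL6. Exons of Trf overlap 2108 nt of Gm20425 on the same strand, the last 300 nt of Trf included, and Gm20425 had 0 counts. How reads shared by overlapping genes were counted is not stated, so the Trf levels may rest on part of its 3' reads. GFAP-IL6 mouse 2 lay inside the WT range, and the log2 change was 0.28 (SE 0.133, 95% interval -0.01 to 0.56, adjusted p = 0.583). The transferrin receptor, Tfrc (chr16:32608920-32632794, plus strand), was at 36.7, 37.2 and 47.5 CPM in WT and 43.9, 51.5 and 44.6 CPM in GFAP-IL6. WT mouse 3 lay above 2 of the 3 GFAP-IL6 mice, and the log2 change was 0.22 (SE 0.115, 95% interval -0.02 to 0.47, adjusted p = 0.635). The endosomal transporter Slc11a2 (chr15:100387898-100425072, minus strand) was at 29.9, 31.8 and 30.6 CPM in WT and 30.1, 28.8 and 31.0 CPM in GFAP-IL6. Those values overlap throughout, and the log2 change of -0.04 had a 95% interval of -0.25 to 0.17 (adjusted p = 0.966), the narrowest of the genes other than Fth1. Exons of Slc11a2 overlap 402 nt of Gm5475 on the other strand, and Gm5475 had 12 counts. Whether reads were counted by strand is not stated, so this limit holds for Slc11a2 too. Across the 4 sets Trf had log2 changes of 0.18 to 0.44 and Tfrc of 0.13 to 0.32, none called.

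Ferroportin, Slc40a1 (chr1:45908068-45926523, minus strand), the only known exporter of iron from cells, was at 5.93, 5.10 and 5.12 CPM in WT and 6.22, 7.87 and 6.43 CPM in GFAP-IL6. The groups did not overlap in the summed libraries, yet the log2 change of 0.34 (SE 0.184, 95% interval -0.05 to 0.74) was not called (adjusted p = 0.658). In single sets its log2 change ran from -0.18 in 2 ng set B to 0.67 in 1 ng set B, on 7 to 80 reads a library. Hmox1 (chr8:75093621-75100589, plus strand), the inducible heme oxygenase, was at 0.676, 0.776 and 0.919 CPM in WT and 0.949, 1.25 and 1.27 CPM in GFAP-IL6. These rest on 7 to 49 counts a mouse, with 3 or fewer counts in 13 of 24 libraries. Its log2 change was 0.62 (SE 0.399, 95% interval -0.23 to 1.47, adjusted p = 0.741), an interval that holds both 0 and the log2 change of Cp.

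Hepcidin was at the limit of detection. Hamp (chr7:30942368-30944032, minus strand) had 0 counts among 45187378 in the WT libraries, which allows up to 0.0664 CPM (without TMM scaling) at a limit of 3 counts. It had 2 counts among 67758101 in the GFAP-IL6 libraries, 1 each in mice 2 and 3, both in 1 ng set B. Hamp was below the filter and has no test and no fold change. Hamp2, the second mouse hepcidin gene, had 0 counts.

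**Figure D3:**
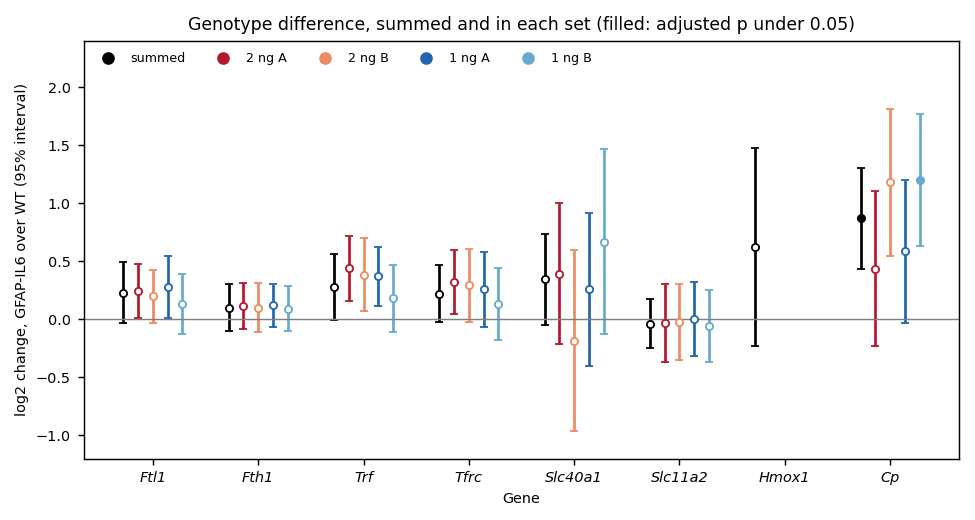
Log2 change of GFAP-IL6 over WT with its 95% interval (vertical axis) for 8 genes (horizontal axis), in the summed libraries (black) and in each set (colours), n = 3 mice per genotype. Filled points passed an adjusted p of 0.05, which only Cp did, in the summed libraries and in 1 ng set B. Hmox1 was tested in the summed libraries only, and Hamp in none.

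The wider pathway was described with a list of 57 genes that includes the 9. Of these 47 were tested, 4 were called higher (Cp, Hfe, Id1 and Lcn2) and 0 lower, beside 1.74% and 0.0547% of all genes. The median log2 change of the list was -0.01, near that of all genes. Lcn2, lipocalin 2, which binds iron-loaded siderophores and is a marker of reactive astrocytes, had 8, 4 and 3 counts in the WT mice and 16, 137 and 162 in the GFAP-IL6 mice. In CPM the groups did not overlap, GFAP-IL6 mouse 1 being nearest to WT, and the log2 change was 3.67 (SE 0.503, adjusted p = 0.000623). Its proposed receptor gene Slc22a17 was at 604 to 616 CPM in the GFAP-IL6 mice, inside the WT range, and was not called (adjusted p = 0.892).

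Of the 8 genes of hepcidin and its control, 5 were tested and 2 called. Hfe, a partner of the transferrin receptors that acts upstream of hepcidin in the liver, was at 3.49, 3.16 and 3.94 CPM in WT and 5.49, 6.96 and 7.45 CPM in GFAP-IL6. The groups did not overlap, and the log2 change was 0.96 (SE 0.206, adjusted p = 0.0229). In single sets its log2 change was 0.42 in 2 ng set A (adjusted p = 0.913), where WT mouse 3, at 9.93 CPM, lay above every GFAP-IL6 mouse. It was 1.19 in 2 ng set B (adjusted p = 0.0484) and 1.63 in 1 ng set A (adjusted p = 0.106). In 1 ng set B the groups overlapped as well, with WT at 3.31, 2.50 and 3.10 CPM and GFAP-IL6 at 2.60, 5.25 and 5.84 CPM. Id1, a target of the BMP and SMAD pathway that also governs hepcidin, was at 43.1, 38.5 and 32.9 CPM in WT and 48.7, 60.2 and 52.6 CPM in GFAP-IL6, with a log2 change of 0.49 (SE 0.114, adjusted p = 0.0404). Smad7, a brake on that pathway, had -0.26 (adjusted p = 0.74), and Hfe2 (hemojuvelin, a BMP co-receptor) 0.14 (adjusted p = 0.944). Like the Cp call, those of Hfe and Id1 were lost when certain single mice were left out. Hfe reached adjusted p of 0.0794 without WT mouse 1, 0.131 without WT mouse 2, 0.115 without GFAP-IL6 mouse 2 and 0.22 without GFAP-IL6 mouse 3. Id1 reached 0.155 without WT mouse 2, 0.0965 without WT mouse 3, 0.27 without GFAP-IL6 mouse 2 and 0.128 without GFAP-IL6 mouse 3. Lcn2 was called in all 13 alternatives that tested it.

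In the other groups no gene outside the 9 was called between genotypes. The iron regulatory proteins and their control (3 tested) had log2 changes of -0.18 to -0.04, among them Fbxl5, which marks one of them for degradation, at -0.04 (adjusted p = 0.961) and Aco1, which encodes iron regulatory protein 1, at -0.18 (adjusted p = 0.764). The iron chaperones Pcbp2 and Pcbp1, which load ferritin, had 0.02 (adjusted p = 0.987) and -0.07 (adjusted p = 0.89). Heph, hephaestin, a ferroxidase related to Cp, had -0.83 (SE 0.447, adjusted p = 0.658), and Hephl1 had 0 counts. Heme handling (12 tested with Hmox1) included the constitutive oxygenase Hmox2 at -0.04 (adjusted p = 0.958) and the heme transporter Slc48a1 at -0.02 (95% interval -0.20 to 0.15). The metalloreductase Steap2 had 0.02 (adjusted p = 0.995) and the second transferrin receptor Tfr2 -0.32 (adjusted p = 0.766). Slc39a8, Steap3 and Ncoa4 were not called either, but their groups did not overlap. Slc39a8 was at 1.05 to 3.07 CPM in WT and 4.11 to 5.68 CPM in GFAP-IL6, and Steap3 at 0.72 to 1.44 and 1.5 to 2 CPM. Ncoa4 was lower, at 1.66 to 1.98 and 1.5 to 1.58 CPM. They had 466, 154 and 188 counts in all. Over all genes tested 8.43% were higher and 5.93% lower without overlap. All 7 genes of mitochondrial iron and iron-sulfur clusters lay between -0.09 and 0.08, with the glutaredoxin Glrx5 at 0.03 (adjusted p = 0.973) and the sulfur donor Nfs1 at -0.06 (adjusted p = 0.937).

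**Figure D4:**
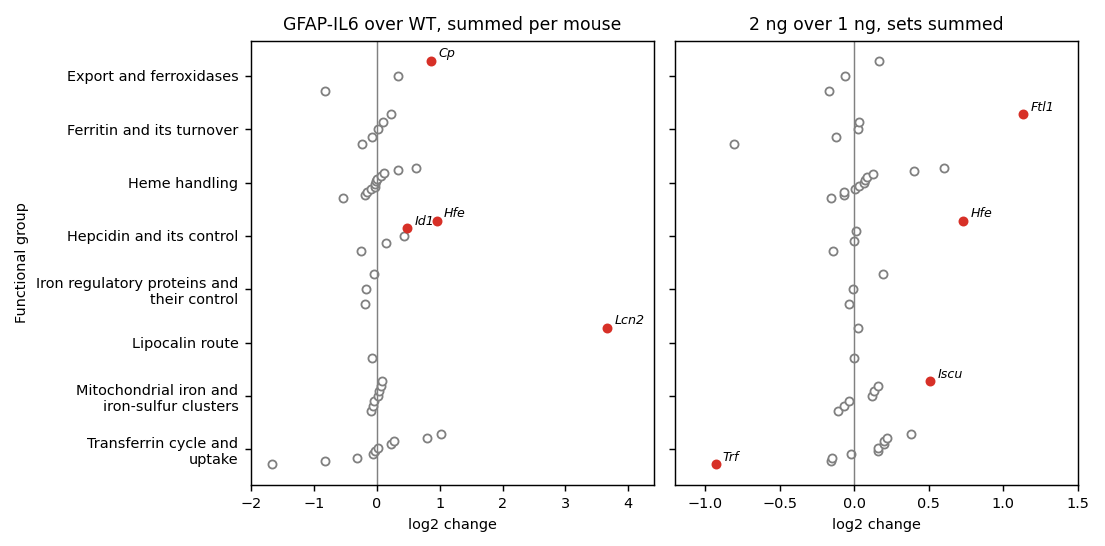
Log2 change (horizontal axes) of the tested genes of the iron list by functional group (vertical axis), GFAP-IL6 over WT on the left (47 genes) and 2 ng over 1 ng on the right (45 genes), with genes at an adjusted p under 0.05 filled and named. Lcn2 lies far to the right between genotypes at 3.67, while Ftl1 at 1.13 and Trf at -0.93 mark the ends between cDNA amounts.

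The second comparison asked what the amount of cDNA in the tagmentation did to the measured levels. Sets A and B were summed per mouse and amount, with genotype in the model. Of 13961 genes 12.2% were called, 5.37% higher and 6.79% lower at 2 ng, and 0.652% also passed an absolute log2 change of 1. With the mouse as a block, which pairs the 2 amounts of each animal, 32.0% were called. Among the 8 iron genes tested Ftl1 was called higher and Trf lower at 2 ng. Ftl1 and Tfrc were higher at 2 ng in 6 of 6 mice, as were 12.3% of all genes, and Fth1 and Trf were lower in 6 of 6 mice, as were 14.5% of all genes. Exact paired permutation tests over 6 mice gave a two-sided p = 0.03125 for these 4 genes, the smallest such a test allows. After Benjamini-Hochberg adjustment over 10 genes it was 0.0521. Those 10 were the 8 members tested with Hfe and Iscu, 2 genes named because they were called in this same comparison. The adjusted value is therefore not independent of the calls.

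Ferritin light chain levels more than doubled with the larger amount. Ftl1 was at 326, 322 and 234 CPM with 2 ng and 152, 152 and 101 CPM with 1 ng in WT mice 1 to 3. In GFAP-IL6 mice 1 to 3 it was at 370.1, 327 and 338 CPM with 2 ng and 167, 152 and 149 CPM with 1 ng. No 1 ng value reached a 2 ng value, and the ratio was 2.12 to 2.31 in every mouse. The log2 difference was 1.13 (SE 0.0899, 95% interval 0.95 to 1.32, adjusted p = 1.55e-08). It was 1.27 in set A (adjusted p = 2e-11) and 1.06 in set B (adjusted p = 1.65e-08), in which the ratios ran from 2.33 to 2.70 and from 1.97 to 2.24. In all, 41 genes had a larger rise. The near-identical copy Ftl1-ps1 had 19 counts at 2 ng and 10 at 1 ng, or 0.403 and 0.152 CPM without TMM scaling.

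The heavy chain moved by little and the other way. Fth1 was at 7990 ± 739 CPM with 2 ng (SD, n = 6 mice) and at 7706 to 9778 CPM with 1 ng, a ratio of 0.906 to 0.937 in the 6 mice. Its log2 difference was -0.12 (SE 0.0619, adjusted p = 0.23), and with the mouse as a block -0.12 (SE 0.00988, adjusted p = 7.49e-32). The spread between mice is therefore wider than the shift within them, and the call depends on the pairing. The mice were not independent tagmentation reactions where they shared a pool, so these p-values describe the mice within the reactions at hand and not repeats of the reaction, of which sets A and B are the only ones.

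Transferrin counts, with the limit set by the overlap with Gm20425, were lower with the larger amount in every mouse. Trf was at 60.4, 81.6 and 84.7 CPM with 2 ng and 126, 169 and 152 CPM with 1 ng in WT mice 1 to 3. In GFAP-IL6 mice 1 to 3 it was at 92.3, 80.6 and 117 CPM with 2 ng and 180.3, 143 and 210.0 CPM with 1 ng. The 2 amounts did not overlap, and the ratio was 0.477 to 0.564 in the 6 mice. The log2 difference was -0.93 (SE 0.107, 95% interval -1.15 to -0.71, adjusted p = 2.19e-06), -1.16 in set A (adjusted p = 3.46e-10) and -0.70 in set B (adjusted p = 0.000305). In all, 65 genes had a larger fall. Over the sets, 17.1% of genes were called in set A and 6.03% in set B.

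**Figure D5:**
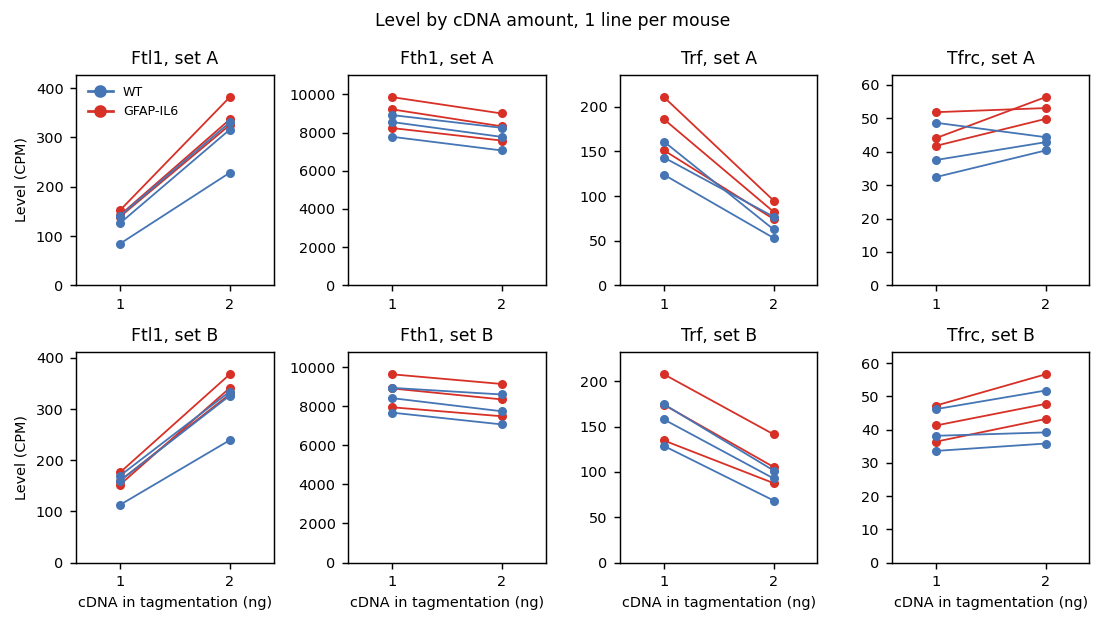
Level in CPM (vertical axes, from 0, a scale for each panel) against ng of cDNA in the tagmentation (horizontal axes) for Ftl1, Fth1, Trf and Tfrc, in set A (top) and set B (bottom), with 1 line per mouse, WT in blue and GFAP-IL6 in red. Every Ftl1 line rises and every Trf and Fth1 line falls in both sets, while 1 of the 6 Tfrc lines falls in set A.

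Tfrc was at 46.5 ± 6.12 CPM with 2 ng and 41.6 ± 5.96 CPM with 1 ng (SD, n = 6 mice), a ratio of 1.01 to 1.23. Its log2 difference was 0.16 (SE 0.0863, adjusted p = 0.276), and 0.17 with the mouse as a block (adjusted p = 0.00701). The other 4 members tested were not called with or without the block. Slc11a2 was at 30.1 ± 1.63 and 30.7 ± 1.27 CPM, a log2 difference of -0.02 (95% interval -0.17 to 0.13). Cp was at 7.25 ± 2.86 and 7.80 ± 2.93 CPM, a log2 difference of -0.06 (95% interval -0.40 to 0.27). Slc40a1 had a log2 difference of 0.17 (95% interval -0.19 to 0.53), and Hmox1 of -0.07 (95% interval -0.77 to 0.63).

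Of the 48 other iron genes 37 were tested between amounts, 2 were called higher and 0 lower at 2 ng, beside 5.37% and 6.79% of all genes, so the count is near the background. Iscu, the scaffold on which iron-sulfur clusters are built, was at 136 ± 13.9 CPM with 2 ng and 95.4 ± 11.0 CPM with 1 ng (SD, n = 6 mice), a ratio of 1.30 to 1.57. Its log2 difference was 0.51 (SE 0.0788, adjusted p = 9.44e-05), with 0.52 in set A (adjusted p = 8e-06) and 0.51 in set B (adjusted p = 0.000677). Hfe had a log2 difference of 0.73 (SE 0.19, adjusted p = 0.0121) and was higher at 2 ng in 6 of 6 mice in the summed sets. The difference was 0.43 in set A (adjusted p = 0.414) and 0.97 in set B (adjusted p = 0.0069). In set A 4 of 6 mice were higher at 2 ng, with ratios of 0.629 to 20.2. WT mouse 3 had 1 count in 1 ng set A. The Hfe call was lost without GFAP-IL6 mouse 2 (adjusted p = 0.0662).

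Other transcripts moved with the amount beside these. The 5 red blood cell markers summed to 372 to 553 CPM with 2 ng and 951 to 1360 CPM with 1 ng, and 4 of them were called lower at 2 ng (median log2 difference of the list -1.31). The 8 oligodendrocytic markers, the cell type known for transferrin mRNA, summed to 5840 to 9260 CPM with 2 ng and 5660 to 8690 CPM with 1 ng, with 1 of 8 (Mog) called lower. Of the other lists 1 of 7 astrocytic and 2 of 6 neuronal markers were called higher and 1 of 10 microglial markers lower. Over all genes the shares were 5.37% higher and 6.79% lower. None of these markers was at 0 in all libraries. The part of such shifts in the Ftl1 and Trf differences was not tested.

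Whether the genotype difference depended on the amount was tested as an interaction over the 12 sums, with the mouse in the model. Of 13961 genes 0% were called by edgeR or by DESeq2, with 538 at an unadjusted p under 0.05 by edgeR and 81 by DESeq2. Among the members the interval left out 0 for Trf alone, with GFAP-IL6 over WT larger at 2 ng by 0.15 on the log2 scale (95% interval 0.02 to 0.29), which was not called (edgeR adjusted p = 1). For Ftl1 the interaction was 0.03 (95% interval -0.07 to 0.13), for Fth1 0.00 (95% interval -0.04 to 0.04) and for Cp -0.14 (95% interval -0.66 to 0.37).

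Over the 24 libraries the 5 members with a mean of at least 10 CPM were set beside 8982 other genes of that level, by Pearson's r of log2(CPM + 1). These libraries come from 6 mice, may share pools and differ in depth, so the values are descriptions. The genes most like Ftl1 were Cxx1c (r = 0.972) and Gm8797 (r = 0.961), which were themselves higher at 2 ng by 2.02 and 1.75 on the log2 scale. Those most like Trf were Calr (r = 0.944) and Brd9 (r = 0.914), both lower at 2 ng, by -0.53 and -0.74. Fth1 was closest to Rps15a and Pltp (r = 0.855 for each). Tfrc was closest to Arc (r = 0.742) and Slc1a2 (r = 0.711), and Slc11a2 to Nr4a3 (r = 0.843) and Evi2a (r = 0.611). Among the members themselves, r was -0.735 between Ftl1 and Trf, -0.501 between Ftl1 and Fth1, and 0.659 between Fth1 and Trf.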

How the data were processed

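The authors trimmed polyA stretches from single-end reads, aligned them with STAR 2.4 to mm10 and counted uniquely aligned reads on GENCODE vM6 genes with featureCounts. They deposited raw counts per gene and library, without normalization. Labels gave the genotype, mouse number, amount and set of all 24 libraries, and mice served as replicates. Labels do not say more of how the animals were sampled, so p-values measure the spread between these mice.

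Counts were fitted over all genes with edgeR 4.0.16 in R 4.3.3 (TMM, filterByExpr, quasi-likelihood test, Benjamini-Hochberg adjustment). The standard error was taken as the absolute log2 change over the square root of F. The 2 ng and 1 ng sums that were taken as 1 mouse deviated together (r = 0.296 to 0.418 over genes). The cause was not tested. Alternatives were DESeq2 1.42.0, RLE size factors, no filter, at least 10 counts in every sample, blocks, leaving out each mouse, libraries thinned to the smallest total and each amount alone.

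The members and gene lists were chosen with earlier results of these data known. Of 59 names in the iron list 57 matched the table, 2 pairs of names being 1 gene each. Genes named besides the 9 were those of the list called between genotypes or amounts, up to 2 others per functional group with the highest mean CPM, Il6 and Gfap, and the 2 genes with the highest Pearson r to each member. Genes named as neighbours, copies or markers, and Slc39a8, Steap3 and Ncoa4, were added where a value touches a result. Positions, exons and transcripts came from GENCODE vM21 (mm10), promoter windows from RefSeq, and near-identical copies from minimap2 2.31-r1302 alignments over at least 100 nt at 97% identity or more.

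Depth was 1524165 to 12256374 counts per library. No molecular identifiers are described for removing PCR copies, so the limit of 3 counts covers counting error only.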

Additional observations from a re-analysis of the deposited data

Results flagged for a closer look

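The 2 ng minus 1 ng log2 difference of Slc11a2 over the 6 mice was flagged because 1 mouse lies far from the rest. The gap of the outermost mouse to its neighbour was 0.642 of the whole range. GFAP-IL6 mouse 1 had a 2 ng to 1 ng ratio of 0.858, and the other 5 mice had ratios of 0.971 to 1.04. Chance gives such a gap in about 1 of 20 groups. The cause was not tested.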

How the results depend on the processing

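The Ftl1, Trf and Iscu differences between cDNA amounts, and the Lcn2 difference between genotypes, kept their direction and passed the threshold in every alternative run on the summed libraries. The Cp difference between genotypes kept its direction in all 14 alternatives (log2 change 0.71 to 1.05) and passed in 7 of them (adjusted p 0.000429 to 0.266). Besides the mice left out, its call was lost with a replicate block by mouse number (0.0834), with libraries thinned to the smallest total (0.119) and with the 2 ng libraries alone (0.204), all adjusted p. Hfe passed in 6 and Id1 in 7 of 14 alternatives, and the replicate block gave 0.0715 and 0.0567. WT and GFAP-IL6 mice of 1 number did not deviate together (r = -0.061 to -0.037), so they share only a number, and with the block 215 genes were called in place of 263 in the summed libraries.

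Reversals were limited to members near 0 between amounts. Leaving out 1 mouse gave log2 differences of -0.2365 to 0.0742 for Hmox1 (above 0 without WT mouse 1, at 0.0315, or WT mouse 3) and of -0.0437 to 0.0115 for Slc11a2 (above 0 without GFAP-IL6 mouse 1). With no filter on low counts the genes called between genotypes numbered 462 in place of 263 in the summed libraries, 199 in place of 125 in 2 ng set A, 200 in place of 132 in 2 ng set B, 214 in place of 136 in 1 ng set A and 228 in place of 140 in 1 ng set B. At 10 or more counts in every sample 79 were called in 2 ng set A and 72 in 2 ng set B, where the replicate block gave 83. With the mouse as replicate block the genes called between amounts numbered 4463 in place of 1698, 3906 in place of 2195 in set A and 2592 in place of 771 in set B. The interaction called 1 gene with no filter. Leaving out 1 mouse gave 146 to 321 calls between genotypes in the summed libraries, 57 to 141 in 2 ng set A, 59 to 160 in 2 ng set B, 62 to 169 in 1 ng set A and 54 to 162 in 1 ng set B. It gave 1124 to 1773 calls between amounts, 1635 to 2195 in set A, 482 to 786 in set B and 0 to 1 for the interaction. The lowest genotype count in each case was that without GFAP-IL6 mouse 3, the most deeply sequenced.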
